A study of Mus musculus with 6 samples.

Results

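The genes described here are 9 regulators and fusion genes of skeletal muscle formation: Pax3, Pax7, Myf5, Myod1, Myog, Myf6, Mef2c, Tmem8c and Cdh15. They were taken by symbol from a deposited table of 49492 gene symbols, which holds all 9. All 9 also passed the filter on low counts, as did 19284 genes in all. The table gives poly(A) RNA-seq counts for palatal shelves, the outgrowths that form the roof of the mouth, taken at E14.5 from embryos of C57BL mice. PRMT1 fl/fl is the genotype of the 3 control libraries, where both copies of Prmt1, a protein arginine methyltransferase gene, are flanked by loxP sites. The 3 deletion libraries are Wnt1-Cre; PRMT1 fl/fl, which carry the same floxed alleles and a Cre recombinase driven by Wnt1 regulatory sequence. No group carries Cre without the floxed alleles, so an effect of Cre cannot be told apart from one of the deletion. The series asks which genes change when Prmt1 is lost, and its design text names proliferation and the cell cycle.

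Skeletal muscle forms in steps. PAX3 and PAX7 are paired-box factors of muscle progenitors, and both are also made in neural crest and neural tissue. MYF5 and MYOD1, basic helix-loop-helix factors that bind E-box sequences, commit progenitors to the muscle fate, and myogenin (Myog) and MRF4 (Myf6), of the same family, drive and maintain differentiation. MEF2C is a MADS-box cofactor of these factors that is also used in endothelium, neural crest, chondrocytes and myeloid cells. Myomaker (Tmem8c) is the membrane protein through which myoblasts fuse, and M-cadherin (Cdh15) is the cadherin of myoblasts. Muscles of the palate and tongue come from mesoderm, whereas Wnt1-Cre acts in the neural crest lineage, so the myogenic cells themselves lie outside the main domain of the recombinase.

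The sequences below show where the binding letters of this circuit stand upstream of Myog, which rose, and of Mef2c, which did not pass the test. Each is the 250 bases before a RefSeq start site, 5′ to 3′ on the gene's strand, from RefSeq's GRCm38.p6 table (for Mef2c, the first of 3 start sites listed). Capitals mark every match, on either strand, of the E-box CANNTG (searched also as its forms CAGCTG and as CAGGTG and as CAGTTG), of the MEF2 core (TA and TA around 4 bases that are each A or T) and of TCAGGTT, the core of the MEF3 site.
Myog, chr1:134289754-134290003, plus strand: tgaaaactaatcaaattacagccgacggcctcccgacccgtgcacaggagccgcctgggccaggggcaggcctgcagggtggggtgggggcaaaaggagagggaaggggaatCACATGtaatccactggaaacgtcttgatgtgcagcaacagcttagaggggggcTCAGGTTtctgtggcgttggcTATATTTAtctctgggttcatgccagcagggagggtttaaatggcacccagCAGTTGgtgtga
Mef2c, chr13:83503784-83504033, plus strand: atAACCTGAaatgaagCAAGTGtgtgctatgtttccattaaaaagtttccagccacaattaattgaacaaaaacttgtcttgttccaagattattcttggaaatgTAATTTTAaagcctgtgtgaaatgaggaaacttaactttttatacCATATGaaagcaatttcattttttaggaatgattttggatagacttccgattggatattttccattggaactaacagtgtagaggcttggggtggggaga

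In the Myog window the E-boxes lie 138 to 133 and 12 to 7 bases before the start, the TCAGGTT match 84 to 78 and the MEF2 core 63 to 56. The last 15 bases of this window, and with them the nearer E-box, lie within the Myog exon as GENCODE annotates it. The Mef2c window holds the same 3 kinds of match: E-boxes at 234 to 229 and at 100 to 95 bases, a MEF2 core at 145 to 138, and TCAGGTT on the opposite strand at 248 to 242. Of 32851 windows of the same length in the table, 66.2% held an E-box, 11.1% CAGTTG, 13.0% CAGCTG, 17.2% CAGGTG, 8.56% a MEF2 core and 3.49% TCAGGTT. Promoter entries were matched for 5 of the 9 genes (Myog, Mef2c, Myf5, Pax7 and Cdh15), not for Pax3, Myod1, Myf6 and Tmem8c. These matches describe letters and were not tested for binding.

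Libraries held 44919889 to 50022829 estimated counts, and are numbered as in the deposited table: controls 212, 213 and 220, and deletion 208, 211 and 221. Whether each stems from its own embryo is not stated in the labels, so each p reflects only library-to-library spread, part of which may be technical. The sex values below show that the controls do not all stem from the same embryo. Prmt1 itself was 1.21-fold lower in the deletion libraries (log2 fold change -0.27 ± 0.05, SE; edgeR adjusted p = 0.0113), with no overlap between groups, and did not pass without control 213, deletion 208 or deletion 211, nor against control 220 alone. The shelves were sequenced in bulk, so the Prmt1 counts include transcripts of cells outside the neural crest. Counts per gene also do not separate parts of the gene. The part of either in the Prmt1 value was not tested. By Xist, controls 212 and 213 (15.5 and 16.0 CPM, the library-scaled count unit used throughout, here after TMM scaling) differed in sex from control 220 and the 3 deletion libraries (3384 to 4487 CPM). Libraries 220 and 221 lay apart from the other 4 on the second principal component, which held 21.1% of variance. The defining markers of skeletal muscle were present in every library: the summed level of 30 differentiated muscle genes was 824 to 891 CPM in controls and 1403 to 2382 CPM in deletion libraries.

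Of the 9 genes, 4 rose in the deletion libraries: Myod1, Myog, Tmem8c and Cdh15, by 2.19-fold to 2.35-fold. Over all tested genes 3.65% were called higher and 3.37% lower by edgeR's quasi-likelihood test at an adjusted p under 0.05. Of the 9 genes 0 were called lower by it. At an unadjusted p under 0.05, 6 of the 9 were higher and 1 lower, against 11.2% and 11.3% of all tested genes. DESeq2 called 5 higher (Pax7 added) and 1 lower (Pax3), against 5.76% and 5.49% of all genes, and limma voom 4 and 0, against 3.25% and 2.83%. The 9 genes had a median log2 fold change of 0.88, and all tested genes one of -0.00013. In 6 of the 9 every deletion library exceeded every control, as in 14.1% of all tested genes, and in 0 of the 9 was it the reverse (13.5% of all). In bulk RNA, more muscle cells and more RNA per muscle cell cannot be told apart.

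**Figure D1:**
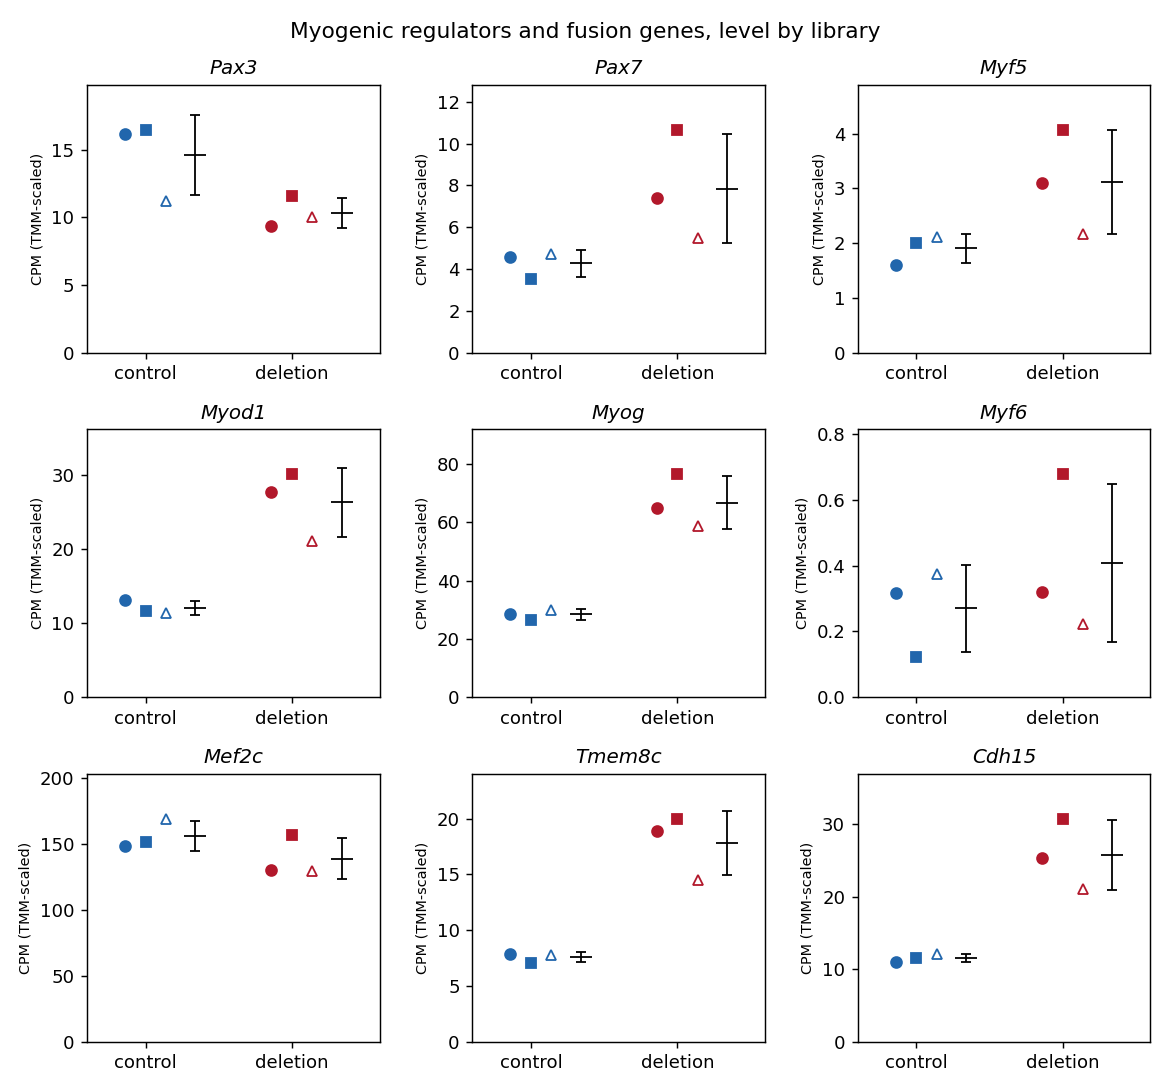
Level of each of the 9 genes in each library, in CPM after TMM scaling, with axes from 0. Points are libraries (blue control, red deletion; circles 212 and 208, squares 213 and 211, open triangles 220 and 221), and bars give the mean and SD of 3. Myod1, Myog, Tmem8c and Cdh15 show wide gaps between groups, Pax7 and Myf5 narrow ones, and Pax3, Myf6 and Mef2c overlap.

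Pax3 (chromosome 1, 78101267 to 78197134, mm10, minus strand) differed among the controls as much as between groups. It measured 16.1, 16.5 and 11.2 CPM in controls 212, 213 and 220 and 9.37, 11.5 and 10.001 CPM in deletion 208, 211 and 221. Controls 212 and 213 were high, control 220 lay within the range of the deletion libraries, and the groups thus overlapped. The means were 14.6 ± 2.94 and 10.3 ± 1.12 CPM (SD, n = 3 in each group here and throughout), a log2 fold change of -0.51 ± 0.15 (SE; 95% interval -0.84 to -0.17; edgeR adjusted p = 0.0718). Against control 220 alone, the control that matches the deletion libraries in sex, the log2 fold change was -0.12. Without control 220 it was -0.66 and passed (edgeR adjusted p = 0.00938), where 3.67% of all genes were called lower. Control 220 also lay apart from controls 212 and 213 on the second principal component (-30.0 against 22.4 and 5.43). Among the controls, sex and that difference cannot be told apart. Pax3 was also called lower with no filter on low counts (3% of all genes called lower) and without libraries 220 and 221 (7.12%).

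Pax7 (chromosome 4, 139737062 to 139833528, minus strand) went the other way from Pax3 in its values. It measured 4.57, 3.52 and 4.73 CPM in controls 212, 213 and 220 and 7.39, 10.7 and 5.49 CPM in deletion 208, 211 and 221. Every deletion library lay above every control, and library 221 lay closest to them. The log2 fold change of 0.88 ± 0.23 missed the threshold narrowly (95% interval 0.36 to 1.40; edgeR adjusted p = 0.0510), and it passed without deletion 221 (1.08, edgeR adjusted p = 0.00746, where 5.28% of all genes were called higher) and by DESeq2 (adjusted p = 0.00282). It also passed with upper-quartile factors and with no filter (edgeR adjusted p = 0.0480 and 0.0190, where 3.59% and 3.28% were called higher). Without libraries 220 and 221 it was 1.15 and passed (edgeR adjusted p = 0.00412, where 7.05% were called higher). It was 0.59 without deletion 211, 0.75 without control 213 and 0.73 against control 220 alone (edgeR adjusted p = 0.145, 0.199 and 0.485). Since PAX3 and PAX7 are also factors of neural crest, the markers of neural crest and glia are given beside them. Of 6 such genes 1 rose and 0 fell by edgeR (3 higher and 0 lower unadjusted and by DESeq2, 1 and 0 by limma voom). The shares of all tested genes called higher were 3.65% by edgeR, 11.2% unadjusted, 5.76% by DESeq2 and 3.25% by limma voom. All 6 log2 fold changes were above 0, with a median of 0.47, and their summed level was 72.2 to 77.4 CPM in controls and 83.5 to 113 CPM in deletion libraries, with none at 0. Their part in the Pax3 and Pax7 values was not tested.

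Myf5 and Myf6 are neighbours on chromosome 10, both on the minus strand (107482908 to 107486134 and 107492853 to 107494737), with 6718 bases between them. Myf5, the early commitment factor, measured 1.61, 2.00 and 2.11 CPM in controls 212, 213 and 220 and 3.10, 4.08 and 2.17 CPM in deletion 208, 211 and 221. All deletion values were above all control values, although 221 exceeded control 220 by little. The log2 fold change was 0.71 ± 0.25 (95% interval 0.16 to 1.26; edgeR adjusted p = 0.118), and without deletion 221 it was 0.91 and passed (edgeR adjusted p = 0.0313). Without libraries 220 and 221 it was 0.98 and passed (edgeR adjusted p = 0.0190, where 7.05% of all genes were called higher). It was 0.47 without deletion 211 and 0.56 against control 220 alone (edgeR adjusted p = 0.387 and 0.613). Myf6, which encodes MRF4 of later muscle fibres, was the lowest of the 9, with 16, 6 and 17 counts in controls 212, 213 and 220 and 16, 31 and 10 in deletion 208, 211 and 221. The groups overlapped, and a change of Myf6 was not detectable at this depth (log2 fold change 0.59, 95% interval -0.64 to 1.82; edgeR adjusted p = 0.602).

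Myod1 (chromosome 7, 46376474 to 46379099, plus strand), the commitment factor that can convert other cells to muscle, was at 13.1, 11.6 and 11.4 CPM in controls 212, 213 and 220. It was at 27.7, 30.1 and 21.1 CPM in deletion 208, 211 and 221, so that the lowest deletion library stood well above the highest control. The means of 12.04 ± 0.922 and 26.3 ± 4.65 CPM gave a 2.19-fold rise (log2 fold change 1.13 ± 0.13, SE; edgeR adjusted p = 0.00107).

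Myog (chromosome 1, 134289989 to 134292548, plus strand) was the most highly expressed of the 9 per length and gave the smallest p. It measured 28.6, 26.4 and 30.01 CPM in controls 212, 213 and 220 and 64.7, 76.5 and 58.8 CPM in deletion 208, 211 and 221. The controls lay close together and all deletion libraries far above them. The log2 fold change was 1.23 ± 0.09 (95% interval 1.02 to 1.44; edgeR adjusted p = 0.000218), and against control 220 alone it was 1.15 (edgeR adjusted p = 0.0320). Myog was the only one of the 9 that still passed against that single control. There the log2 fold changes were 1.21 for Myod1, 1.196 for Tmem8c and 1.10 for Cdh15 (edgeR adjusted p = 0.0737, 0.0610 and 0.0993). In that fit the lone control is assumed to vary like the deletion libraries, and 0.215% of all tested genes were called higher. With sex as a covariate over all 6 libraries, which contrasts the same libraries with a pooled spread, Myog, Tmem8c, Myod1 and Cdh15 passed (edgeR adjusted p = 0.0137, 0.0332, 0.0426 and 0.04998), as did 0.337% of all genes in that direction.

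Mef2c (chromosome 13, 83504034 to 83667080, plus strand) had the highest CPM of the 9 and did not pass the test. It measured 148, 151 and 169 CPM in controls 212, 213 and 220 and 130, 157 and 130 CPM in deletion 208, 211 and 221. Deletion 211 lay inside the control range and the other two lay below it. The log2 fold change was -0.17 ± 0.08, with a 95% interval of -0.35 to 0.01 (edgeR adjusted p = 0.249), and against control 220 alone it was -0.28 (edgeR adjusted p = 0.380). The interval leaves out a change of the size seen for Myog. Of other cells that make MEF2C, the 6 endothelial markers summed to 359 to 374 CPM in controls and 331 to 364 CPM in deletion libraries, and 0 were called in either direction by edgeR (1 higher and 2 lower at an unadjusted p under 0.05, and 0 and 1 by DESeq2). The 5 macrophage markers summed to 98.0 to 129 and 88.8 to 99.9 CPM, again with 0 called (0 higher and 1 lower unadjusted, and 0 and 1 by DESeq2). Of 5 genes of cartilage and bone, Col2a1 and Sox9 rose and none fell by edgeR (3 higher and 1 lower unadjusted and by DESeq2, 2 and 1 by limma voom). Their sums, 623 to 640 and 686 to 755 CPM, pool changes of both signs. The log2 fold changes were 0.925 for Col2a1, 0.298 for Sox9 and 1.474 for Acan, but -1.499 for Sp7 and -0.402 for Runx2. Sp7 was at 133, 172 and 188 CPM in controls 212, 213 and 220. It was at 36.9, 61.1 and 76.7 CPM in deletion 208, 211 and 221, without overlap (edgeR adjusted p = 0.0813). Acan, Sp7 and Runx2 were named after their values were seen. Over all tested genes, edgeR called 3.65% higher and 3.37% lower. The shares were 11.2% and 11.3% unadjusted, 5.76% and 5.49% by DESeq2, and 3.25% and 2.83% by limma voom. No marker of these lists was at 0. Their part in the Mef2c values was not tested.

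Tmem8c (chromosome 2, 27061636 to 27072179, minus strand), listed in GENCODE as Mymk, was at 7.89, 7.05 and 7.79 CPM in controls 212, 213 and 220. It was at 18.9, 20.004 and 14.53 CPM in deletion 208, 211 and 221, again without overlap. The log2 fold change of 1.23 ± 0.13 (edgeR adjusted p = 0.000581) equalled that of Myog to 2 decimals. Cdh15 (chromosome 8, 122847966 to 122867397, plus strand) was at 10.9, 11.5 and 12.1 CPM in controls 212, 213 and 220 and at 25.4, 30.8 and 21.1 CPM in deletion 208, 211 and 221, also without overlap. Its log2 fold change was 1.16 ± 0.13 (edgeR adjusted p = 0.000935). Cdh15 overlaps the gene model Gm20388 on the same strand, so its counts depend on how shared reads were divided. The value for Gm20388 itself was -0.04 on the log2 scale (edgeR adjusted p = 0.930).

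**Figure D2:**
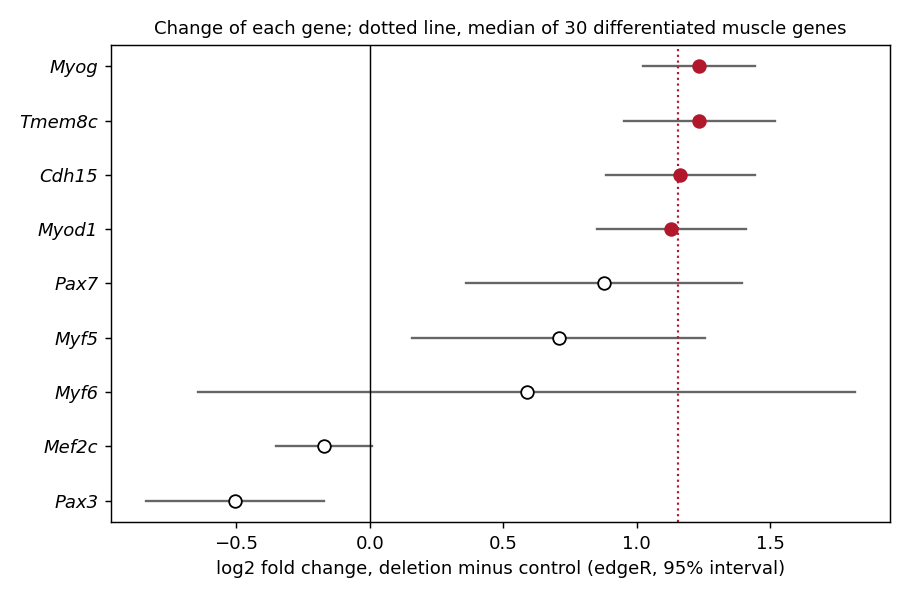
Log2 fold change (deletion minus control) with its 95% interval from edgeR for each of the 9 genes. Filled red points passed at an adjusted p under 0.05, open ones did not. The dotted line is the median of 30 differentiated muscle genes (1.15). Myog, Tmem8c, Cdh15 and Myod1 lie at that line, while the intervals of Mef2c and Pax3 lie below it.

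Within the deletion group the 9 genes shared most of the order of the libraries. Library 211 was the highest of the 3 deletion libraries in 9 of the 9 genes, and 221 the lowest in 8, the exception being Pax3, for which 208 was lowest. Mef2c was nearly equal in 208 and 221 (130.3 and 129.6 CPM), and Myf6 rests on 16, 31 and 10 counts in 208, 211 and 221. How many of all tested genes share this order was not counted. The differentiated muscle genes followed the same order, with a mean log2 CPM of 5.10, 5.44 and 4.68 in 208, 211 and 221 against 4.001, 3.94 and 4.04 in controls 212, 213 and 220. Per kilobase of annotated exon, the order of mean levels in controls was Myog (19.0 CPM per kb), Mef2c (9.96), Myod1 (6.47), Tmem8c (5.01), Cdh15 (3.54), Pax3 (2.36), Myf5 (0.916), Pax7 (0.729) and Myf6 (0.215), and the ranges of neighbours overlapped only for Myf5 and Pax7. In deletion libraries the order was Myog (44.6), Myod1 (14.1), Tmem8c (11.8), Mef2c (8.84), Cdh15 (7.93), Pax3 (1.67), Myf5 (1.495), Pax7 (1.34) and Myf6 (0.323). There each gene from Myod1 to Cdh15, and from Pax3 to Pax7, overlapped its neighbour in that order. Mef2c has many annotated exons, and its value per length is lowered by any that are not used in this tissue.

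Each gene was then set against the muscle gene level of its own library. The ratio is the gene's log2 CPM minus the mean log2 CPM of the 30 differentiated muscle genes, none of which is among the 9. The ratios of 4 genes lay close to those of the controls, with deletion minus control differences of 0.03 for Myod1, 0.15 for Myog, 0.14 for Tmem8c and 0.07 for Cdh15, each with overlapping groups. Those for Pax7 and Myf6 were -0.25 and -0.58, with overlap. Myf5 was lower relative to muscle genes in every deletion library, by 0.42 on the log2 scale (log2 ratios -3.28, -2.91 and -2.93 in controls 212, 213 and 220 and -3.44, -3.39 and -3.54 in deletion 208, 211 and 221). The largest differences were -1.56 for Pax3 and -1.25 for Mef2c, also without overlap. The mean of the 30 muscle genes itself rose by 1.08, without overlap. A gene whose own level did not change would therefore fall in this ratio by about as much. The Pax3 and Mef2c values largely restate that rise. How many of all tested genes lack overlap in this ratio was not counted. With 3 libraries against 3 the exact two-sided permutation test cannot give a p below 0.1, and it gave 0.1 for Pax3, Myf5 and Mef2c (0.26 adjusted over 13 ratios).

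**Figure D3:**
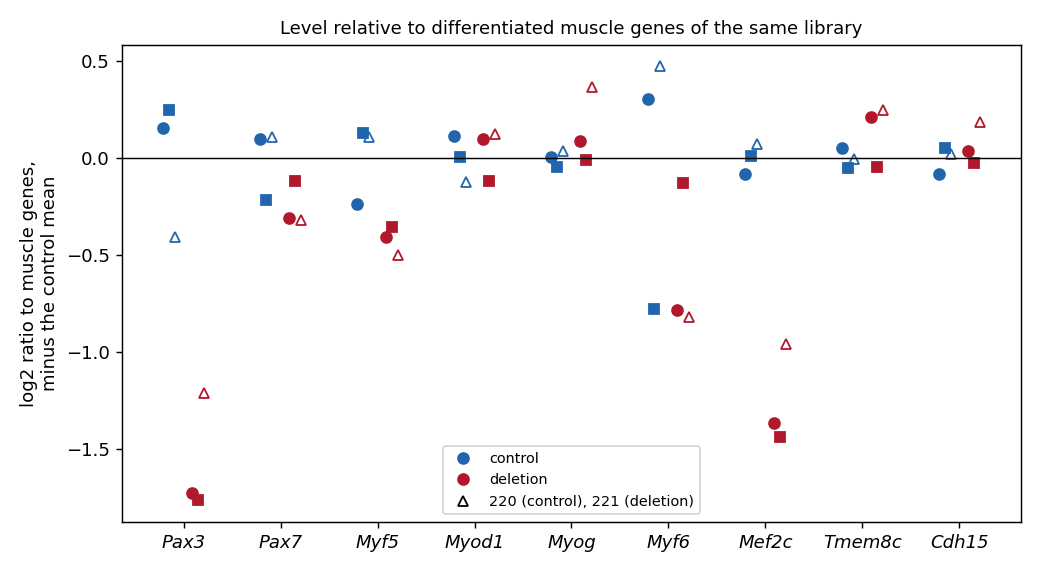
Log2 ratio of each gene to the mean of 30 differentiated muscle genes in the same library, minus the mean of that ratio in controls. Points are libraries (blue control, red deletion; open triangles 220 and 221). Myod1, Myog, Tmem8c and Cdh15 scatter around 0 in both groups, Myf5 lies lower in all 3 deletion libraries, and Pax3 and Mef2c lie far lower. The muscle mean itself rose by 1.08, so a gene with no change of its own would also lie lower.

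The other 4 of the 13 ratios took progenitor and commitment genes against Myog. Myog itself rose by 1.23 on the log2 scale, so a gene with no change of its own would fall in these ratios too. Relative to Myog, Pax3 was lower in every deletion library, with log2 ratios of -0.82, -0.68 and -1.42 in controls 212, 213 and 220 and -2.78, -2.72 and -2.55 in deletion 208, 211 and 221. The Myf5 to Myog ratio also did not overlap, at -4.12, -3.70 and -3.80 in those controls and -4.36, -4.22 and -4.74 in those deletion libraries (difference -0.57; exact permutation p = 0.1, 0.26 adjusted). The ratios of Pax7 and Myod1 to Myog overlapped between groups, with differences of -0.40 and -0.11 (exact permutation p = 0.2 and 0.4, 0.325 and 0.473 adjusted).

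The genes whose levels over the 6 libraries were most like each member's were found by the root mean square difference of centred log2 CPM, a description over libraries that share both group and muscle gene level. For Myog these were Chrnd (0.068), Arpp21 (0.068) and Tnnc1 (0.071), for Tmem8c Tnnc1 (0.023), Chrna1 (0.055) and Myog (0.076), for Cdh15 Atp2a1, Chrnd and Tnni1 (0.053 to 0.059), and for Myod1 Mustn1, Tmem8c and Unc45b (0.067 to 0.082). Chrnd and Chrna1 encode acetylcholine receptor subunits, Tnnc1 and Tnni1 troponins, Atp2a1 a calcium pump of the sarcoplasmic reticulum and Unc45b a myosin chaperone. For Pax7 the nearest were Csrp3 (0.044), Tceal7 and Mypn, where Csrp3 and Mypn encode proteins of the sarcomere's Z-disc, and for Myf5 Grip2 (0.099), Ky and Sox8. Myf6 had no close match (Myh7b, 0.26, then Csrp3 and Tceal7). For Pax3 the nearest were Ccdc88b, Dmrta2 and Ctss (0.042 to 0.077) and for Mef2c Zfp773, Cycs and Scn2a (0.040 to 0.048). Among the 9, the closest pair was Myog and Tmem8c (0.076).

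Differentiated muscle genes were also higher in the deletion libraries. Of 30 measured, 21 rose and 0 fell by edgeR (0 lower also at an unadjusted p under 0.05, by DESeq2 and by limma voom), with a median log2 fold change of 1.15. Actc1, the cardiac actin of embryonic muscle, went from 105 ± 9.21 to 241 ± 52.2 CPM, and Des, the muscle intermediate filament desmin, from 28.6 ± 0.341 to 54.8 ± 8.87 CPM. Tnnc1, Chrna1, Mybpc1, the slow myosin-binding protein, and Myh7, the slow myosin heavy chain, had log2 fold changes of 1.22, 1.22, 1.07 and 1.12 (edgeR adjusted p = 0.000581, 0.000848, 0.00108 and 0.00160). The other 9 did not pass, among them the embryonic myosin Myh3 (log2 fold change 1.04, edgeR adjusted p = 0.0515) and the giant sarcomere protein gene Ttn (1.08, 0.124). Without control 212 the count called higher was 13, where 2.47% of all tested genes were called higher. Without control 213 it was 11, where 1.01% of all were. In the main fit 3.65% of all tested genes were called higher, so calls fell over all genes too. Against control 220 alone the median log2 fold change of the 30 was 1.10.

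Among 13 measured genes upstream of head muscle, 3 rose and 0 fell, with a median log2 fold change of 0.23. Unadjusted, 5 were higher and 0 lower, by DESeq2 4 and 0, and by limma voom 2 and 0. For this list and the next, the shares of all tested genes called by edgeR were 3.65% higher and 3.37% lower. Those shares were 11.2% and 11.3% unadjusted, 5.76% and 5.49% by DESeq2, and 3.25% and 2.83% by limma voom. Msc, a repressor-type bHLH factor of pharyngeal muscle progenitors, went from 3.96 ± 0.628 to 8.02 ± 2.80 CPM (log2 fold change 1.02, edgeR adjusted p = 0.0377). Six4, a homeobox factor that is also widely made outside muscle, had a small log2 fold change of 0.28 (edgeR adjusted p = 0.0246). Neither Msc nor Six4 passed without control 212, control 213, deletion 208 or deletion 211, and Msc also did not without control 220. Of 7 myoblast progenitor genes, 2 rose and 0 fell (median 0.19). Unadjusted and by DESeq2, 3 were higher and 0 lower, and by limma voom 2 and 0. Fgfr4, the FGF receptor of myoblasts, went from 5.90 ± 1.00 to 14.2 ± 3.86 CPM (log2 fold change 1.26, edgeR adjusted p = 0.00763), and Itga7, the muscle laminin receptor subunit, from 4.61 ± 0.381 to 6.73 ± 0.346 CPM (0.54, 0.0372). Fgfr4 passed with any 1 library left out, and Itga7 only with deletion 221 left out.

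Of 8 measured bHLH partners, MEF2 family members and cofactors, 3 rose and 0 fell (median 0.18). Unadjusted, 5 were higher and 1 lower, by DESeq2 4 and 0, and by limma voom 2 and 0. Beside this list and the inhibitors below, edgeR called 3.65% of all tested genes higher and 3.37% lower. Those shares were 11.2% and 11.3% unadjusted, 5.76% and 5.49% by DESeq2, and 3.25% and 2.83% by limma voom. Smyd1, a muscle-specific methyltransferase family member needed for sarcomere assembly, went from 12.8 ± 0.625 to 29.7 ± 7.40 CPM (log2 fold change 1.21, edgeR adjusted p = 0.00827). Rbm24, a splicing regulator of striated muscle, and Smarcd3, the chromatin remodelling subunit that works with MYOD1, had log2 fold changes of 0.60 and 0.38 (edgeR adjusted p = 0.0468 and 0.0102). The E-protein and other MEF2 genes tested (Tcf3, Tcf4, Tcf12, Mef2a and Mef2d) did not pass. None of these 3 passed without control 213, Smarcd3 also did not without deletion 208, and Rbm24 passed only with deletion 221 left out. Of 13 inhibitors of myogenesis 1 rose, the Notch effector Hes1 (log2 fold change 0.25, edgeR adjusted p = 0.0360), and 0 fell (median 0.08). Unadjusted, 3 were higher and 2 lower, and by DESeq2 and by limma voom 2 were higher and 0 lower. The Hes1 call was lost without control 212, control 213, deletion 208 or deletion 211. The largest value in that list, named after its values were seen, was that of Mstn, the myostatin gene that muscle itself makes: controls averaged 3.19 ± 1.23 CPM and deletion libraries 10.04 ± 3.77 CPM (log2 fold change of 1.66 by edgeR, adjusted p = 0.0651).

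Among 27 fusion and adhesion genes, 4 rose and 1 fell (9 higher and 4 lower unadjusted, 8 and 3 by DESeq2, 4 and 2 by limma voom), with a median log2 fold change of 0.04. All tested genes gave 3.65% higher and 3.37% lower (11.2% and 11.3% unadjusted, 5.76% and 5.49% by DESeq2, 3.25% and 2.83% by limma voom). The numbers that fell by edgeR, adjusted and unadjusted, are thus near the shares of all genes. Gm7325, which encodes myomixer, the micropeptide that acts with myomaker in fusion, measured 2.52, 2.59 and 2.79 CPM in controls 212, 213 and 220 and 5.89, 8.39 and 5.69 CPM in deletion 208, 211 and 221, without overlap (log2 fold change 1.34, edgeR adjusted p = 0.00236). Cdon and Boc, cell-surface coreceptors that promote MYOD1 activity and also take part in hedgehog signalling, had log2 fold changes of 0.31 and 0.21 (edgeR adjusted p = 0.00936 and 0.0307). Adgrb1, an adhesion receptor that promotes myoblast fusion, had one of 0.62 (edgeR adjusted p = 0.0248). Cd9, a tetraspanin made by many cell types including epithelium, fell from 64.7 ± 5.94 to 48.2 ± 1.26 CPM (log2 fold change -0.42, edgeR adjusted p = 0.00610). Of 5 epithelial markers 3 also fell, with a summed level of 881 to 948 CPM in controls and 531 to 750 CPM in deletion libraries, and their part in the Cd9 value was not tested. Boc and Adgrb1 did not pass without control 213 or deletion 208, Boc also without control 220 or deletion 211, and Adgrb1 also without control 212. Cd9 did not pass without control 213 (edgeR adjusted p = 0.0502), nor against control 220 alone, where its log2 fold change was -0.27 (edgeR adjusted p = 0.261). Against control 220 alone, no gene of these 6 lists was called higher, and the model with a sex term called 3 of them higher.

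**Figure D4:**
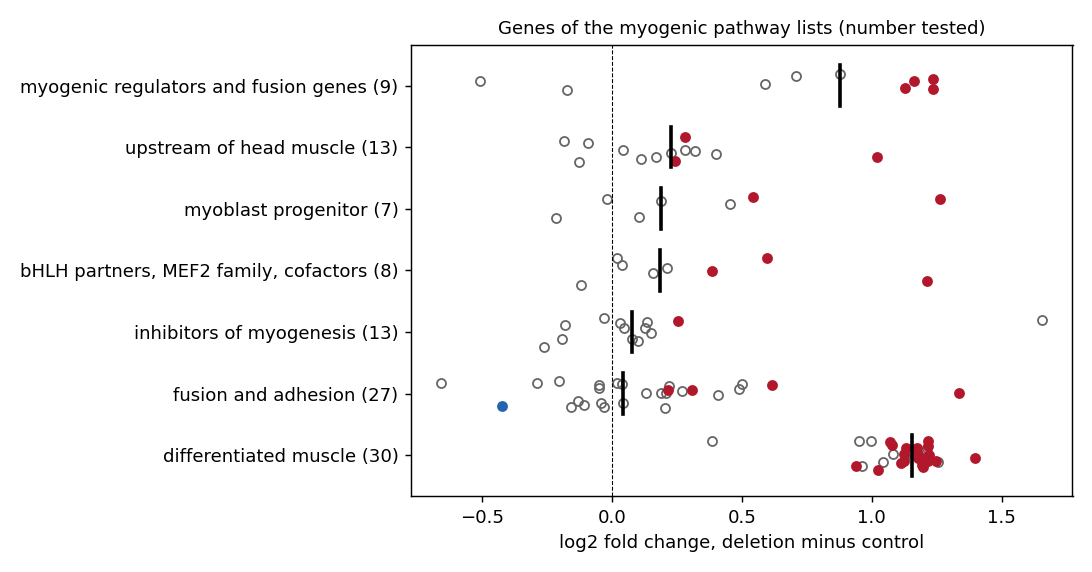
Log2 fold change (deletion minus control) of every tested gene of the 9 and of the 6 other lists, with the number tested in brackets. Filled red and blue points passed at an adjusted p under 0.05 (higher and lower), open ones did not, and medians are drawn as black bars. Differentiated muscle genes cluster near 1.15, and the 9 genes have a median of 0.88. The remaining lists have medians of 0.04 to 0.23, with a few genes, such as Gm7325, Fgfr4 and Smyd1, well above them.

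Markers of other cells that the dissection could hold are given beside these lists, and their part in the results was not tested. All tested genes gave 3.65% higher and 3.37% lower by edgeR (11.2% and 11.3% unadjusted, 5.76% and 5.49% by DESeq2). The 5 palate mesenchyme markers summed to 1532 to 1665 CPM in controls and 1660 to 1688 CPM in deletion libraries, with 0 called by edgeR (2 higher and 0 lower unadjusted, 1 and 0 by DESeq2). The 4 melanoblast markers that were measured summed to 32.0 to 34.9 and 29.7 to 38.2 CPM, with 0 called by edgeR at an adjusted or unadjusted p under 0.05, by DESeq2 or by limma voom. Kit, at 24.3 to 32.6 CPM over the libraries, made up most of these sums. Pmel was at only 0.33 to 0.96 CPM and Dct at 0 to 0.37 CPM, with 0 in control 212. The 5 neuronal genes summed to 23.5 to 44.6 and 36.7 to 62.1 CPM, with 0 called (4 higher and 0 lower unadjusted, 3 and 0 by DESeq2).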

How the data were processed

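The authors deposited 1 table of estimated counts (expected counts) per gene symbol for 6 libraries, not normalized, of which 22.2% to 22.9% of values were not whole numbers. CASAVA 1.8.2, STAR 2.4.1d, Partek and the build mm10 are named per the submitters' processing notes. Which of them counted, with what annotation and strand setting, is not given in the sources used here. Columns show a group but no sample number. Here counts were rounded, filtered with filterByExpr (minimum count 10, minimum total 15), scaled by TMM and tested over all 19284 genes with edgeR 4.0.16 (glmQLFit with robust=TRUE, glmQLFTest, R 4.3.3) with no covariate. P-values were adjusted by Benjamini-Hochberg, with 0.05 as the threshold, and SE is the log2 change over the square root of F. Log2 CPM used a prior count of 2. DESeq2 1.42.0 and limma 3.58.1 voom were alternatives. Exact permutation tests used SciPy 1.17.1. Coordinates and exon lengths are from GENCODE M21 (GRCm38, which mm10 names). Libraries of the same group all differed by more than counting error (chi-square over its degrees of freedom, 7.83 to 37.9). Named were the 9 genes, up to 5 of smallest p past the threshold per list (or 2 where none passed), Actc1, Myh3, Ttn and Des for level, Prmt1, and the 3 nearest profiles of each member among genes with mean log2 CPM of 1 or more, leaving out unnamed clones and pseudogenes. The members and lists were chosen with earlier results of these data known. Lbx1, Mef2b and Tyrp1 did not pass the filter. Some genes that the rule names are not reported here.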

Additional observations from a re-analysis of the deposited data

How the results depend on the processing

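The log2 fold changes of the 9 genes kept their sign in all 152 values recomputed under 17 other settings, and 138 stayed on the same side of the threshold. The 3 calls lost were Myod1, Tmem8c and Cdh15 without both controls of the other sex (212 and 213), which left 1 of the 9 called higher. The number called lower became 1 (Pax3) by DESeq2, with no filter and without libraries 220 and 221, a setting chosen after seeing the data. With each library left out in turn it was 0 to 1, and the number called higher 4 to 6. Over all genes, 703 higher and 649 lower became 1088 and 1037 by DESeq2, 65 and 64 with sex as a covariate, 44 and 45 without 212 and 213, 1378 and 1391 without 220 and 221, and 198 to 1047 and 158 to 825 with 1 library left out. Over the 6 pathway lists, 34 higher became 3 with sex as a covariate, 0 without 212 and 213, and 14 to 51 with 1 library left out. The 1 lower became 2 with upper-quartile factors, limma voom, no filter, the CPM filter (1 or more in 3 libraries) and without 220 and 221, 3 by DESeq2, 0 with the sex covariate and without 212 and 213, and 0 to 3 with 1 library left out. Of 113 recomputed ratios 110 moved by less than 1 SD. Without 212 and 213, Pax3 moved to -1.16 against muscle genes and -1.27 against Myog, and Myod1 against Myog to 0.046. The cause of these moves was not tested. The CPM filter removed Myf6. No paired analysis was possible because the columns carry none of the labels' replicate numbers. DESeq2 size factors, robust=FALSE and TMM without muscle genes changed no call of the 9 genes.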
